A study of Mus musculus with 12 samples.

Results

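The genes of 8 surface receptors were followed across the cell types of the mouse spleen, namely Cd72, Cd22, Siglecg, Fcrl1, Fcrl5, Siglece, Lilrb4a and Pirb. All 8 were found by name among the 16094 named genes of the expression table, and the set was chosen by name with their levels in SLE.yaa and WT mice by cell type already known from these data. Differences of these genes between SLE.yaa and WT mice are therefore given as a description, with no p-value. Where a receptor is said to pass a threshold or not in this contrast, it is the adjusted p of 0.05 in fits across all genes. For the receptors this is part of the description, and no evidence is drawn from it. The libraries came from the spleens of 4 male mice, with leukocytes enriched by their surface protein CD45 on magnetic beads and captured in droplets. The WT group was 2 mice of strain C57BL/6, with a deposited age of 14.43. The SLE.yaa group was 2 mice of strain B6.Sle1yaa, a lupus-prone line with the Sle1 interval and with Yaa, a piece of the X chromosome moved to the Y chromosome, and with a deposited age of 14.86. The age has no unit in the table, and it moves with the genotype. The genotype stands under a tag that names a chimera condition, and the sources used here do not say what it refers to.

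An inhibitory receptor of this kind carries immunoreceptor tyrosine-based inhibitory motifs (ITIMs) in its cytoplasmic tail. When a Src family kinase such as Lyn phosphorylates them, they recruit the phosphatases SHP-1 (gene Ptpn6) or SHIP-1 (gene Inpp5d), which dampen signals from the B cell receptor or from activating receptors of myeloid cells. CD72 and CD22 are known as brakes on B cell receptor signalling, and both mark B cells. Loss of some of these brakes leads to autoantibodies in mice.

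Levels are means over the cells of a mouse and type of the depth-adjusted values in the deposited table, scaled to a sum of 1000000 per mouse and type (vpm). Values for the 4 mice are given in the order WT 1, WT 2, SLE.yaa 1 and SLE.yaa 2. Differences are SLE.yaa minus WT on the scale of log2(vpm + 10), after scaling between mice with trimmed mean (TMM) factors, and the error beside each is its standard error (SE) over 2 against 2 mice. Because of the added 10, the difference of a gene with a low level is understated. Cell types are those the authors annotated, and B cells here means their types B, B-ISG and B-early together. Levels are not comparable between genes, since they are not expressed per transcript length.

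The genes lie on 4 chromosomes (GRCm38.p6). Cd72 is on chromosome 4 (43447724 to 43455102) and overlaps Tesk1, and Lilrb4a is on chromosome 10 (51490898 to 51496613). Fcrl1 (87376353 to 87403967) and Fcrl5 (87435777 to 87500678) are neighbours on chromosome 3, and overlap the gene models Gm31940 and Gm40085. The other members are all on chromosome 7: Pirb (3712505 to 3720382), Cd22 (30865404 to 30880342), Siglecg (43408192 to 43418349) and Siglece (43648882 to 43672044), the last overlapping Ceacam18 and Ctu1. Pirb shares much of its sequence with the activating Pira genes, and Lilrb4a with Lilr4b. Whether the authors' counting used the strand or told such copies apart was not stated in the sources used here, so levels of these genes are uncertain to that extent.

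The promoters of the neighbours Fcrl1 and Fcrl5, which had unlike patterns below, and of Pirb, a receptor of myeloid cells, are shown as the 120 bases before the gene (RefSeq, GRCm38.p6). Capitals mark GAGGAA or TTCCTC, the core bound by PU.1, a transcription factor of B cells and myeloid cells whose gene is Spi1.
Fcrl1, chr3:87376233-87376352, plus strand: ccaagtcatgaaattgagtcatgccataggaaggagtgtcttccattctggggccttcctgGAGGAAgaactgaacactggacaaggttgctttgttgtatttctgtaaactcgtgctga
Fcrl5, chr3:87435657-87435776, plus strand: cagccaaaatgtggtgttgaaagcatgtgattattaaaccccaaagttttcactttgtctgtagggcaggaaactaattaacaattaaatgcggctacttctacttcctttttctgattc
Pirb, chr7:3720383-3720502, minus strand: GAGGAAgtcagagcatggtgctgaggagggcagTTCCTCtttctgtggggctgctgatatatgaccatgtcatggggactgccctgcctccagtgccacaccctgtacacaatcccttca
The stretch of Fcrl1 holds 1 match, that of Pirb holds 2 and that of Fcrl5 holds 0. In the RefSeq windows of 250 bases before a start site, Siglece and Pirb hold 3 matches each, Fcrl1 holds 2, and Cd72 holds 1. Cd22 and Fcrl5 hold 0, and Siglecg holds 2 in the window of 1 of its start sites and 0 in that of the other. At least 1 match on either strand was found in 23.25% of all 32851 such windows, so a match is common by itself. The windows of Cd72, Cd22 and Siglece lie wholly inside the gene spans given above, and that of Pirb lies outside its span. Those of Siglecg, Fcrl1 and Fcrl5 lie partly inside. The letters describe these windows only. Lilrb4a has no entry in the table of promoters.

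The 4 expression libraries held 4961 to 6130 cells, with 21793635 to 28877299 UMIs in total and median UMIs per cell of 3467 to 3670 in WT and 4050 to 4695 in SLE.yaa mice. Pairs of libraries shared 35 to 49 cell barcodes. Cells annotated Mac held monocyte markers at summed levels of 9886 to 21500 vpm and macrophage markers at 229 to 294 vpm. Cells annotated DC (dendritic cells) differed in kind between the genotypes. Their summed level of 11 macrophage markers was 1014 and 2134 vpm in WT and 16310 and 11980 vpm in SLE.yaa mice, while that of 6 conventional dendritic cell markers was 758 and 1006 against 316 and 406 vpm. Cells with a value for C1qa, C1qb or C1qc, chains of complement C1q made by macrophages, were 4 of 77 and 9 of 74 DC cells of WT mice, against 209 of 260 and 219 of 290 of SLE.yaa mice. Levels of the receptors in DC are therefore given for all of them and for both classes.

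Each receptor had its own place among the cell types. Cd72, Cd22, Siglecg and Fcrl1 were highest in B cells of WT mice, and Fcrl5 had its highest WT levels in types B and B-ISG. Siglece and Pirb had their highest WT levels in neutrophils (annotated PMN). Lilrb4a was highest in basophils (annotated Baso, 5 to 9 cells per mouse, with 807.6, 1071, 1517 and 929.6 vpm) and next in neutrophils. In SLE.yaa mice cells annotated DC held the highest mean level of 3 receptors, Cd72, Fcrl5 and Siglece. For Cd72 the SLE.yaa range in DC (695.3 to 904.6 vpm) overlapped that of early B cells (744.5 to 754.0 vpm), and for Fcrl5 and Siglece the DC range stood apart from the next type. Lilrb4a was higher in Mac than in DC in WT mice and higher in DC than in Mac in SLE.yaa mice, with separate ranges in both. For Cd22 types B and B-ISG overlapped in both genotypes.

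**Figure D1:**
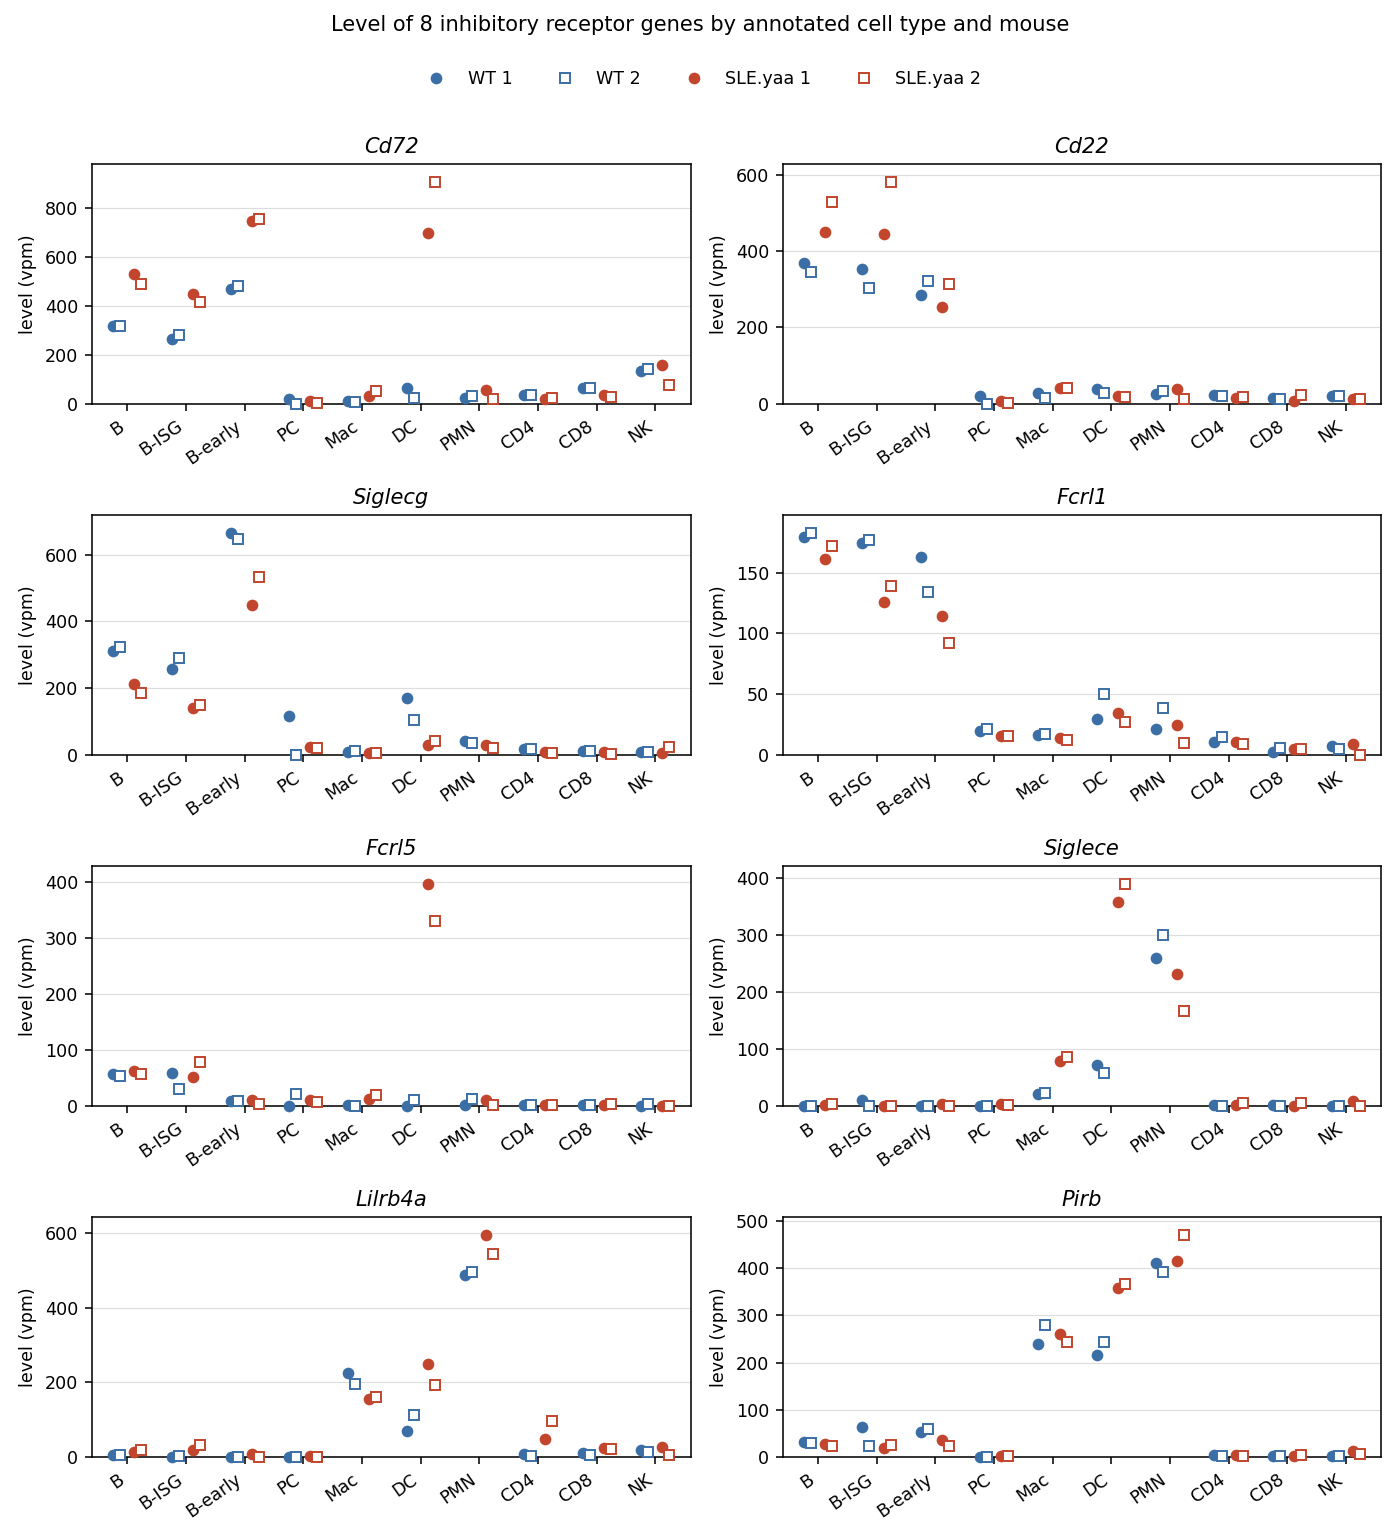
Level (vpm, axis from 0) of each receptor gene in 10 annotated cell types, with 1 point per mouse, WT in blue and SLE.yaa in red. B cell types hold the first 4 genes, neutrophils and cells annotated Mac or DC the last 3, and in the cells annotated DC the red points of Cd72, Fcrl5 and Siglece stand far above the blue ones.

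CD72 is a C-type lectin-like receptor of B cells that binds CD100, the product of Sema4d. Cd72 levels in B cells were 325.3, 326.7, 536.5 and 499.5 vpm. Both SLE.yaa mice were above both WT mice, by 0.70 (SE 0.11) on the log2 scale. The same held in each B cell type. Type B had 315.2, 318.0, 530.6 and 487.3 vpm, B-ISG had 262.0, 278.2, 446.7 and 414.9 vpm, and B-early had 469.6, 481.1, 744.5 and 754.0 vpm. Early B cells had the highest Cd72 level of the B cell types in every mouse. Cells of these types had median UMI counts of 3186 and 3354 in WT mice, and 4732 and 4392 in SLE.yaa mice. Among cells with 2000 to 6000 UMIs the Cd72 difference was 0.63.

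The Cd72 difference was present inside the marker-defined classes of B cells. T-bet and CD11c type B cells, which hold at least 2 of Tbx21, Itgax, Itgam, Cxcr3 and Zeb2, numbered 25, 10, 400 and 419, and their Cd72 levels were 405.5, 381.5, 941.9 and 766.3 vpm. These were the highest Cd72 levels of the 3 classes in every mouse. Marginal zone type B cells, which hold at least 3 of Cr2, Myof, S1pr3, Dtx1, Cd1d1 and Cd9, had 291.0, 332.1, 503.0 and 534.3 vpm. All other B cells had 329.7, 325.6, 449.3 and 440.3 vpm. In each class both SLE.yaa mice were above both WT mice, and without T-bet and CD11c type cells the difference in B cells was 0.54. These classes are ranges cut by detected markers, not cell types.

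Cd72 was also found where it is not a usual marker. In cells annotated DC it stood at 65.62, 21.56, 695.3 and 904.6 vpm, a difference of 4.19 (SE 0.34). The SLE.yaa levels were above those of the B cells of the same mice. Among DC cells with C1q the levels were 0, 0, 853.5 and 1194 vpm, with 4 and 9 such cells in WT. Among DC cells without C1q they were 69.08, 24.09, 102.6 and 150.6 vpm, so both SLE.yaa mice were again higher, by 1.45. In the DC cells with C1q of the SLE.yaa mice 6 B cell markers summed to 360.5 and 375.1 vpm, while in the B cells of the same mice they summed to 8307 and 8109 vpm. Among 86 and 79 of these cells with none of the 6 markers, Cd72 was at 895.7 and 1223 vpm.

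Cells annotated Mac held little Cd72, at 10.37, 6.117, 30.83 and 50.14 vpm. Both SLE.yaa mice were higher, by 1.57 (SE 0.23), and without SLE.yaa 2 the difference was 1.27 and no longer passed the threshold. Among Mac cells with Ly6c2, a marker of classical monocytes, Cd72 was at 0, 0, 4.03 and 11.2 vpm, and among those without it at 20.4, 10.5, 38.2 and 59.4 vpm. Cd72 was thus higher in cells without Ly6c2 in every mouse. In CD4 T cells Cd72 went the other way, with 35.89, 35.68, 19.51 and 20.93 vpm (−0.63, SE 0.14), and in CD8 T cells with 63.04, 62.06, 36.88 and 28.20 vpm (−0.70, SE 0.16). The summed level of B cell markers in the CD4 T cells was also lower in SLE.yaa mice, at 420, 423, 210 and 259 vpm, and in the CD8 T cells it was 212, 240, 175 and 227 vpm. Without cells that hold at least 2 B cell markers the Cd72 difference in CD4 T cells was −0.88. In CD8 T cells it was −0.83 without cells that hold at least 2 myeloid markers and did not pass, and the part of B cell markers there was not tested. NK cells held Cd72 at 131.8, 141.3, 158.8 and 75.72 vpm, and the groups overlapped. Neutrophils overlapped too, at 24.42, 32.00, 56.68 and 18.55 vpm, and plasma cells held at most 19.37 vpm.

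CD22 is a sialic acid-binding lectin (Siglec) of B cells that sits close to the B cell receptor. Cd22 levels in B cells were 362.0, 342.1, 444.6 and 519.4 vpm, higher in both SLE.yaa mice (0.49, SE 0.14). This difference did not pass the threshold, and with each mouse left out it was 0.33 to 0.66. T-bet and CD11c type B cells held 375.1, 483.3, 610.1 and 652.6 vpm, and marginal zone type cells 379.9, 368.1, 428.8 and 468.5 vpm. The groups did not overlap in either class. In early B cells, at 284.3, 321.5, 253.0 and 314.7 vpm, Cd22 overlapped between the genotypes, and whether this type differs from the others was not tested.

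In cells annotated Mac, Cd22 stood at 27.65, 13.76, 41.69 and 39.75 vpm (0.90, SE 0.22). It was 0.90 without either SLE.yaa mouse, and then did not pass the threshold, and 1.23 and 0.54 without WT 1 and WT 2. The Cd22 difference was 0.04 among Mac cells with Ly6c2 and 0.63 among those without. In cells annotated DC the direction was the reverse, with 39.37, 28.74, 19.03 and 18.12 vpm (−0.49, SE 0.27), which did not pass the threshold. Among DC cells without C1q the Cd22 groups overlapped, at 41.45, 24.09, 12.32 and 53.99 vpm. DC cells with C1q held 0, 68.22, 20.82 and 4.361 vpm, where the groups overlapped too.

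Siglec-G, the product of Siglecg, is the other inhibitory Siglec of mouse B cells and is known for restraining B-1 cells. Siglecg differed between the genotypes in the direction opposite to Cd72 and Cd22. Its levels in B cells were 336.6, 342.9, 218.8 and 202.0 vpm, lower in both SLE.yaa mice (−0.62, SE 0.10). Early B cells held the highest level in every mouse, at 665.2, 647.9, 450.1 and 532.8 vpm, and B-ISG cells the lowest of the B cell types, at 257.2, 289.7, 139.6 and 147.6 vpm. Both SLE.yaa mice were lower in each of these types. Marginal zone type cells had 410.1, 413.3, 247.0 and 213.2 vpm and all other B cells 327.2, 330.1, 233.4 and 213.2 vpm. In T-bet and CD11c type cells the levels were 182.5, 559.6, 142.3 and 148.2 vpm, where the WT values rest on 25 and 10 cells. Without those cells the difference in B cells was −0.50, and among cells with 2000 to 6000 UMIs it was −0.45 and did not pass the threshold.

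Outside B cells, Siglecg was lower in the SLE.yaa cells annotated DC, at 170.6, 104.2, 28.54 and 41.76 vpm (−1.54, SE 0.27). The DC cells without C1q held 179.6, 116.5, 90.32 and 144.9 vpm, where the groups overlapped. DC cells with C1q held 0, 0, 12.05 and 2.18 vpm. In CD4 T cells Siglecg was at 16.59, 16.42, 6.865 and 3.924 vpm (−0.81, SE 0.15), next to the lower B cell marker sum given above. Without CD4 T cells that hold at least 2 B cell markers Siglecg was below the minimum and gave no value.

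Without WT 1 or WT 2 the Cd72 difference in B cells was 0.74 or 0.67 and the Siglecg difference −0.59 or −0.64, and none of these passed the threshold. Over the 13 alternatives on the same log2 scale the ranges were 0.54 to 0.98 for Cd72 and −0.67 to −0.34 for Siglecg.

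The Fc receptor-like proteins of B cells are relatives of the IgG receptors, of which FCRL1 is described as an activating coreceptor and FCRL5 as inhibitory. Fcrl1 in B cells was at 178.1, 179.6, 159.1 and 166.9 vpm. Both SLE.yaa mice were lower, by a difference of −0.08 that was smaller than its SE of 0.11 and that was 0.19 without scaling between mice. Early B cells had 163.4, 134.2, 114.3 and 91.92 vpm, also lower in both SLE.yaa mice (−0.46, SE 0.21). Marginal zone type cells, at 211.8, 201.6, 212.5 and 202.7 vpm, had nearly the same range in the 2 genotypes. Fcrl1 in DC cells overlapped between them, at 29.53, 50.30, 34.59 and 26.79 vpm. DC cells without C1q held 31.09, 48.19, 12.32 and 28.42 vpm, lower in both SLE.yaa mice (−0.67), which did not pass the threshold. DC cells with C1q held 0, 68.22, 40.54 and 26.17 vpm, where the groups overlapped.

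Fcrl5 varied more between the classes of B cells than between the genotypes over B cells as a whole. In the 3 types together it was at 53.77, 49.27, 60.57 and 53.78 vpm (0.17, SE 0.10), where the SLE.yaa 2 level exceeded that of WT 1 by a margin far below the spread within the genotypes. The difference was −0.22 among cells with 2000 to 6000 UMIs and −0.14 without T-bet and CD11c type cells, so its direction changed. Marginal zone type cells held 178.3, 187.9, 112.6 and 105.3 vpm, lower in both SLE.yaa mice. T-bet and CD11c type cells held 81.1, 101.7, 142.3 and 112.2 vpm, higher in both SLE.yaa mice. All other B cells had 35.04, 25.29, 37.91 and 39.05 vpm, and early B cells at most 9.73 vpm. In WT mice Fcrl5 was thus highest in the marginal zone type cells, while in SLE.yaa mice the ranges of these cells and of the T-bet and CD11c type cells overlapped.

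**Figure D2:**
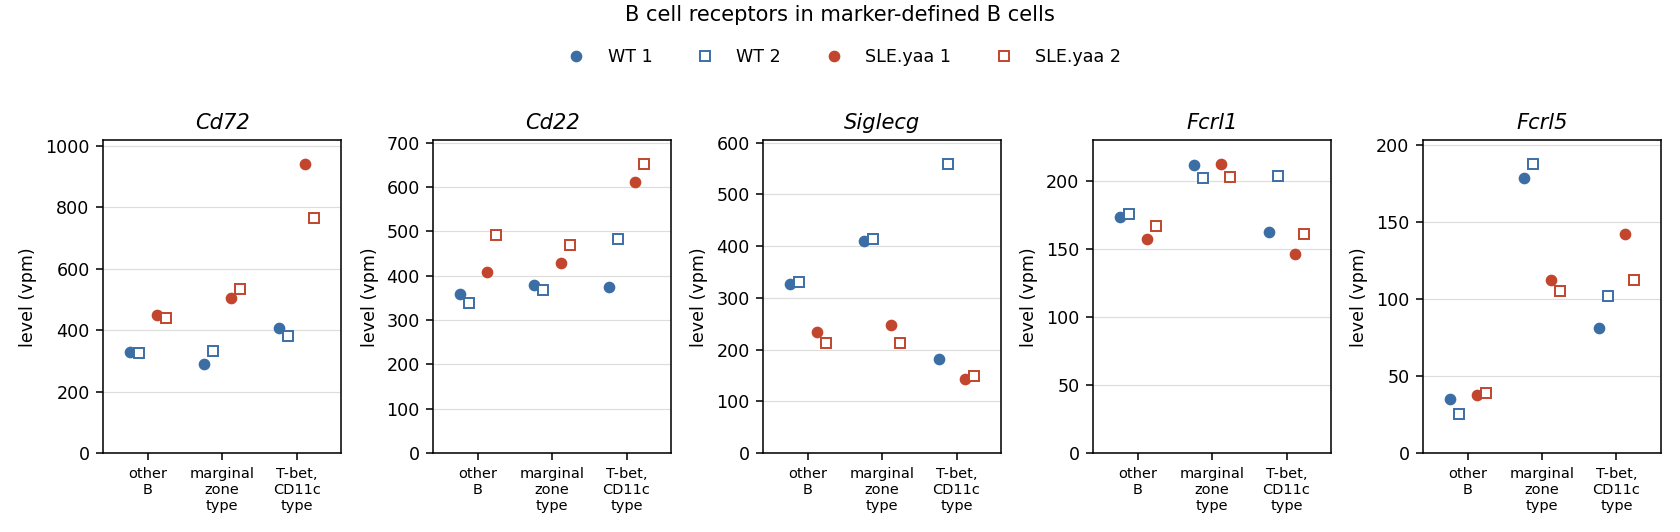
Level (vpm, axis from 0) of the B cell receptors in T-bet and CD11c type, marginal zone type and all other B cells, with 1 point per mouse. Cd72 and Cd22 are higher and Siglecg is lower in both SLE.yaa mice in the marginal zone type and other cells, and Fcrl5 is lower in the SLE.yaa marginal zone type cells (112.6 and 105.3 vpm against 178.3 and 187.9).

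Fcrl5 was at its highest in the SLE.yaa cells annotated DC, at 0, 10.78, 397.0 and 331.0 vpm (4.79, SE 0.32), above every B cell class. The DC cells with C1q held 0, 68.22, 489.8 and 450.3 vpm, and those without C1q held 0, 4.02, 49.27 and 19.89 vpm. Without cells that hold at least 2 B cell markers the DC difference was 5.02. Cells annotated Mac held 0.6912, 0, 11.72 and 19.96 vpm (1.36, SE 0.22), where the SLE.yaa 1 level was near the minimum. Without the Mac cells that hold C1q, Fcrl5 was below the minimum and gave no value. That setting kept 533 of 550 and 1416 of 1485 Mac cells of the SLE.yaa mice. The DC cells with C1q also held haemoglobin genes, with summed erythroid levels of 0, 102, 1715 and 3249 vpm, and the part of erythroid material in the Fcrl5 levels was not tested.

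Siglec-E, the product of Siglece, is an inhibitory Siglec of neutrophils, monocytes and macrophages. Siglece in neutrophils was at 259.4, 299.4, 230.2 and 166.4 vpm. Both SLE.yaa mice were lower, by −0.26, with an SE of 0.19, while among cells with 2000 to 6000 UMIs the difference was 0.37. In cells annotated Mac it was at 20.05, 22.94, 77.73 and 86.10 vpm, higher in both SLE.yaa mice (1.70, SE 0.15). The Siglece levels of Mac cells stood apart in 1 class only. Cells without Ly6c2 had 21.78, 23.57, 93.56 and 98.34 vpm (1.80), and cells with Ly6c2 had 18.25, 22.06, 20.14 and 34.45 vpm, where the groups overlapped (0.36). The difference between the classes was not tested. Mac cells without Ly6c2 were 206, 106, 451 and 1251 cells.

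In cells annotated DC, Siglece was at 72.18, 57.48, 356.3 and 388.5 vpm (2.51, SE 0.19). Within the classes the genotypes overlapped. The DC cells with C1q held 458.5, 272.9, 441.5 and 507.0 vpm, and those without C1q held 51.81, 32.13, 36.95 and 79.57 vpm. Among cells annotated DC, Siglece was thus high in those with C1q, in WT mice too, though there over 4 and 9 cells.

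Lilrb4a encodes LILRB4 (gp49B), an inhibitory immunoglobulin-like receptor of mast cells, myeloid cells and activated T cells. In neutrophils it was at 486.8, 495.9, 594.5 and 545.2 vpm, above WT in both SLE.yaa mice (0.44, SE 0.17). Median UMIs of neutrophils were 1640, 1547, 2368 and 2712. Among the 47, 27, 89 and 192 neutrophils with 2000 to 6000 UMIs the Lilrb4a difference was 1.33. In cells annotated Mac it was at 224.6, 194.2, 155.9 and 159.0 vpm, below WT in both (−0.21, SE 0.14). The direction changed among Mac cells with 2000 to 6000 UMIs (0.11) and among those without Ly6c2 (0.40). Mac cells with Ly6c2 held 325.8, 330.8, 263.9 and 200.7 vpm and those without it 126.6, 96.9, 126.2 and 149.1 vpm. Lilrb4a was higher in the cells with Ly6c2 in every mouse, which made up 169 of 375, 63 of 169, 99 of 550 and 234 of 1485 Mac cells. In cells annotated DC it was at 68.90, 111.4, 249.9 and 192.3 vpm (1.38, SE 0.25), and among those without C1q at 65.63, 112.4, 82.11 and 59.68 vpm (−0.18). DC cells with C1q held 131, 102.3, 294.7 and 243.1 vpm, higher in both SLE.yaa mice, with 4 and 9 such cells in WT.

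The difference of Lilrb4a in CD4 T cells was 2.41 (SE 0.24), with levels of 7.110, 2.526, 48.78 and 96.78 vpm. Both SLE.yaa mice were above both WT mice. CD4 cells with Foxp3, the factor of regulatory T cells, held 44.46, 15.91, 105.1 and 205.4 vpm. CD4 cells with Pdcd1 (PD-1) and no Foxp3 held 41.70, 21.70, 50.57 and 70.42 vpm, and cells with neither held 2.657, 0.7083, 14.26 and 65.71 vpm. In each class both SLE.yaa mice were higher, and the WT values of the first 2 classes rest on 68 and 67 and on 19 and 24 cells. The CD4 cells with neither gene were 710 and 743 in WT mice, against 241 and 235 in SLE.yaa mice. Markers of other cells in the CD4 T cells also differed, with macrophage sums of 10.2, 4.1, 71.5 and 82.0 vpm and monocyte sums of 58.9, 61.6, 79.5 and 119.9 vpm. Without cells that hold at least 2 myeloid markers the Lilrb4a difference was 2.60. In CD8 T cells Lilrb4a was at 9.568, 5.682, 23.41 and 19.47 vpm (0.89, SE 0.19). Without such cells the difference was 0.88, and without WT 1 or WT 2 it was 1.06 or 0.73, and none of these passed. The Cd72 difference in CD8 T cells was −0.66 or −0.72 without WT 1 or WT 2 and did not pass either.

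B cells held Lilrb4a at 3.134, 4.526, 12.21 and 18.09 vpm (0.88, SE 0.13), near the minimum of 10 vpm. Monocyte markers in the same cells summed to 19.3, 21.89, 75.73 and 174.3 vpm. Without B cells that hold at least 2 myeloid markers, or without T-bet and CD11c type cells, Lilrb4a was below the minimum and gave no value.

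PIR-B, the product of Pirb, is an inhibitory receptor for MHC class I on myeloid cells and B cells. Pirb had small differences between the genotypes in neutrophils, Mac and B cells as a whole, and larger ones in DC and early B cells. Neutrophils held 410.5, 393.1, 416.4 and 470.4 vpm (0.37, SE 0.19) and cells annotated Mac 239.2, 279.9, 261.4 and 243.3 vpm (0.15, SE 0.12). Among neutrophils with 2000 to 6000 UMIs the Pirb difference was 0.96 and did not pass the threshold. The Mac levels overlapped between the genotypes, and with scaling to the sum alone their difference was −0.036. In cells annotated DC Pirb was at 216.6, 244.3, 358.9 and 366.4 vpm (0.80, SE 0.17), and without SLE.yaa 2 the difference was 0.75 and did not pass the threshold. Among DC cells without C1q it was at 203.8, 228.9, 320.2 and 289.9 vpm, still higher in both SLE.yaa mice (0.57), and among those with C1q at 458.5, 375.2, 369.2 and 395.8 vpm, where the groups overlapped. B cells held 33.65, 30.49, 27.38 and 23.54 vpm (−0.21, SE 0.10), a difference of 0.0025 without scaling between mice. Early B cells held 52.94, 59.23, 36.49 and 21.81 vpm, lower in both SLE.yaa mice (−0.76, SE 0.26), which did not pass the threshold.

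**Figure D3:**
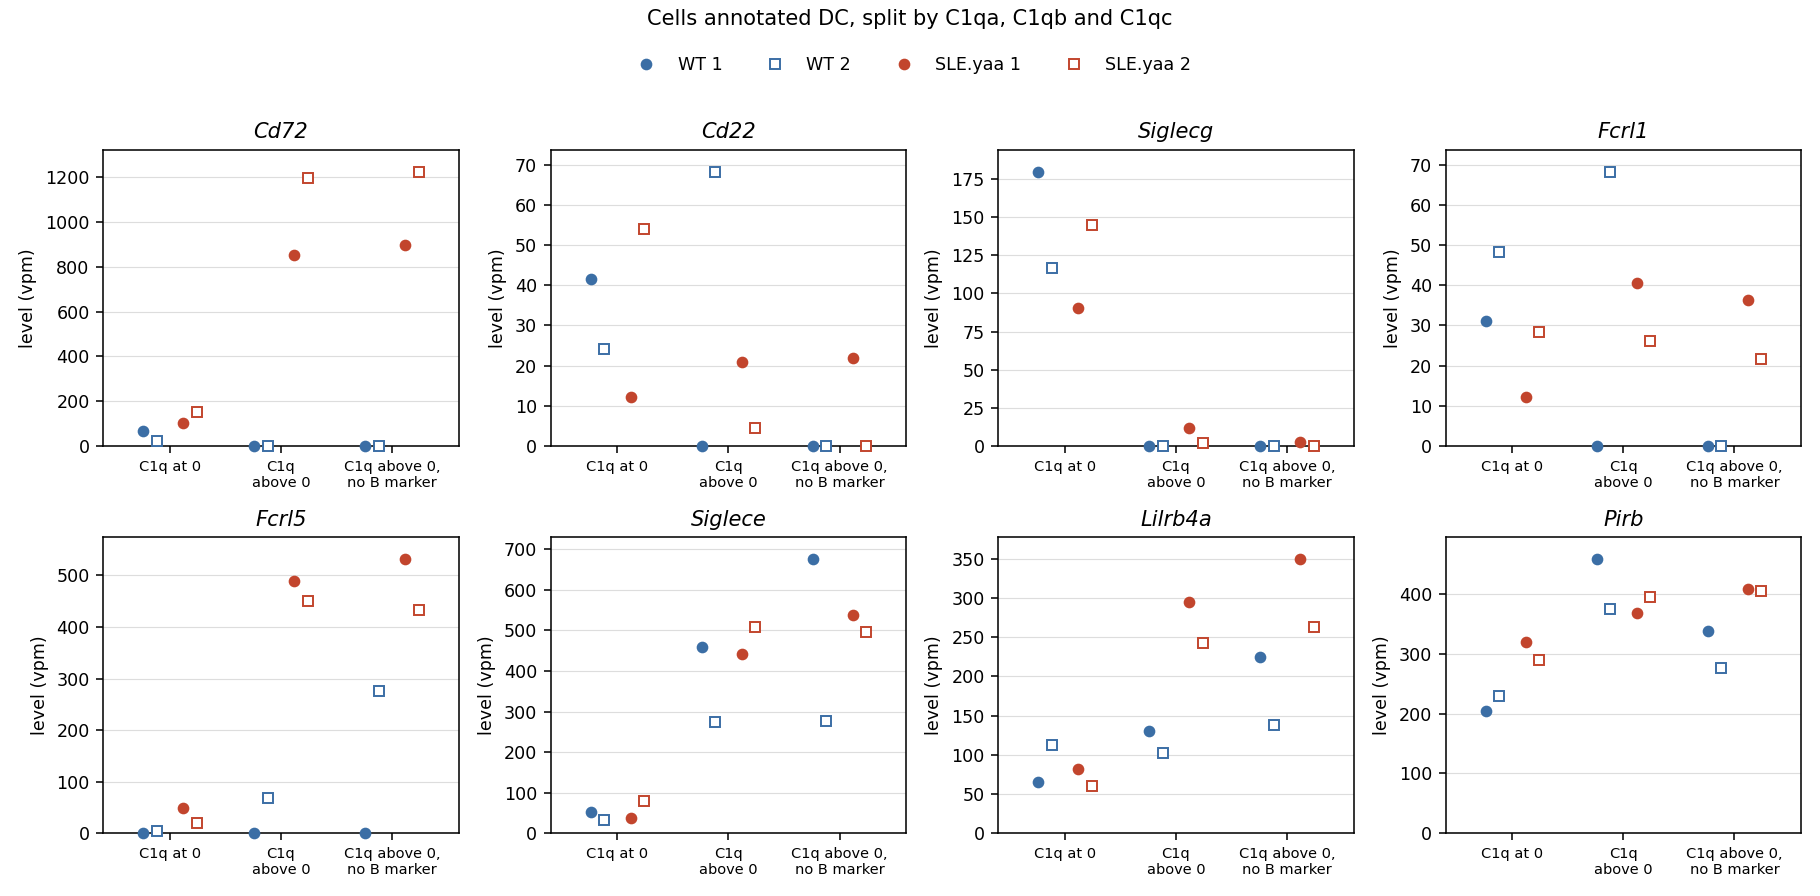
Level (vpm, axis from 0) of each receptor in cells annotated DC without C1q, with C1q, and with C1q but none of 6 B cell markers, with 1 point per mouse. Cd72 and Fcrl5 are high in the SLE.yaa cells with C1q, Siglece is high in cells with C1q of both genotypes, and Siglecg is at or near 0 there. The WT points of the classes with C1q rest on 9 cells or fewer.

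Counted over the set, the fits across all genes (limma, Benjamini-Hochberg adjusted p under 0.05) gave the following. The filter of 10 vpm in at least 2 mice left 7 receptors in B cells (not Siglece), 7 in Mac (not Siglecg), all 8 in DC and neutrophils, 5 in CD4, 3 in CD8 and 3 in NK cells. In B cells 3 of 7 passed (Cd72, Siglecg and Lilrb4a), against 3.52% of all genes tested. In Mac 4 of 7 passed against 5.69%, in DC 6 of 8 against 12.1%, in CD4 T cells 3 of 5 against 28.2%, and in CD8 T cells 2 of 3 against 3.14%. In neutrophils 0 of 8 passed by limma against 1.8%, with 1 at an unadjusted p under 0.05, and in NK cells 0 of 3 against 0.0846%, with 0 at an unadjusted p under 0.05. Among neutrophils with 2000 to 6000 UMIs 1 of 7 passed, Lilrb4a, with 5 at an unadjusted p under 0.05. In that fit 174 genes passed in all and 1399 had an unadjusted p under 0.05, and their share of all genes tested was not taken. Since the receptors were chosen for this contrast, nothing is read from these shares and counts. The genotypes did not overlap for 7 of 7 receptors in B cells, 6 of 7 in Mac, 7 of 8 in DC and 4 of 8 in neutrophils, where 41.4%, 54.5%, 54.9% and 46.9% of all genes tested did not overlap. Among DC cells without C1q 0 of 8 receptors passed by limma against 0.377% of all genes tested, with 3 at an unadjusted p under 0.05, and that fit has 51 to 73 cells per mouse. Among Mac cells with Ly6c2 0 of 5 passed by limma against 0.35%, with 1 at an unadjusted p under 0.05. Over all cells of a spleen at once, more cells of a type and more RNA per cell cannot be told apart, so those values are not described.

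**Figure D4:**
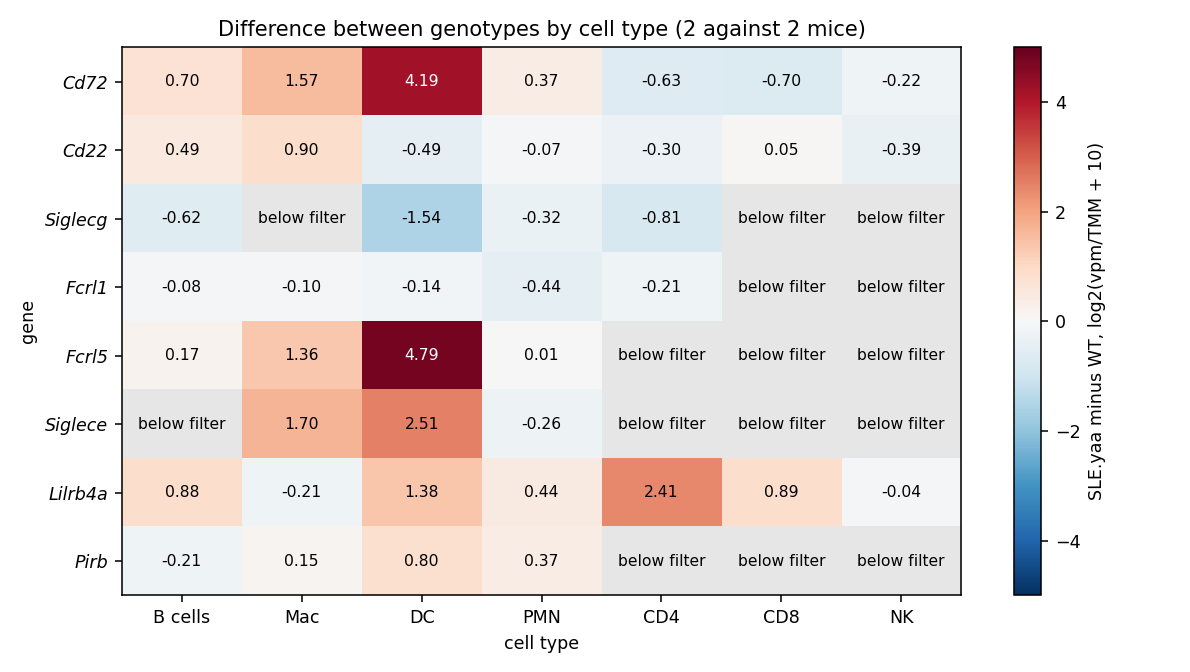
Difference between SLE.yaa and WT mice (log2(vpm/TMM + 10), colour and printed value) of each receptor in 7 cell types. The highest values are those of Fcrl5 (4.79) and Cd72 (4.19) in cells annotated DC, and grey fields are below the minimum level.

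The receptor libraries gave a comparison that did not use the genotype contrast. B cells whose heavy chain was IgG, IgA or IgE (class-switched) were set against B cells with IgM or IgD within each SLE.yaa mouse, over 51 and 79 switched and 2012 and 1835 unswitched cells. Of the receptors of B cells 4 were lower in switched cells in both mice. Fcrl1 was at 160.3 and 175.8 vpm in unswitched and 114.4 and 74.17 vpm in switched cells, a difference of −0.88 (SE 0.18, limma, adjusted p = 0.00146). Cd72 was at 560.6 and 528.0 against 335.4 and 388.2 vpm (−0.67, SE 0.14, limma, adjusted p = 0.00169). Neither gene overlapped between the classes, nor did Siglecg, Cd22, Fcrl5 or Lilrb4a below, though for Fcrl5 only by 63.13 against 62.87 vpm. The share of all genes without overlap was not taken, so nothing is read from this. Siglecg was at 222.0 and 206.2 against 153.9 and 138.5 vpm (−0.61, SE 0.16, limma, adjusted p = 0.00902). Cd22 was at 448.4 and 540.6 against 351.2 and 427.7 vpm (−0.43, SE 0.14, limma, adjusted p = 0.0414).

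Fcrl5, at 62.87 and 57.52 against 63.13 and 79.12 vpm, did not pass (0.12, SE 0.20, limma, adjusted p = 0.752). Lilrb4a was at 11.73 and 15.30 against 19.73 and 44.50 vpm, higher in the switched cells of both mice but not past the threshold (0.72, SE 0.27, limma, adjusted p = 0.0777). Pirb went in opposite directions in the 2 mice (27.58 and 21.66 against 23.67 and 44.50 vpm). Of 7 receptors tested 4 were lower, against 8.54% of all genes tested. Cd72 and Siglecg thus had opposite differences between the genotypes and the same direction between the classes of cells. Switched cells had more UMIs, with medians of 6411 and 7935 against 4834 and 4538. Among cells with 2000 to 6000 UMIs, which left 21 and 25 switched cells, 0 of 6 receptors passed by limma against 0.456% of all genes tested, with 3 at an unadjusted p under 0.05. The differences were −0.73 for Fcrl1, −0.60 for Cd72, −0.55 for Cd22 and −0.16 for Siglecg. All 4 calls were also lost without the filter on low values, without the trend of the variance on the level, and without the mouse as a block.

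**Figure D5:**
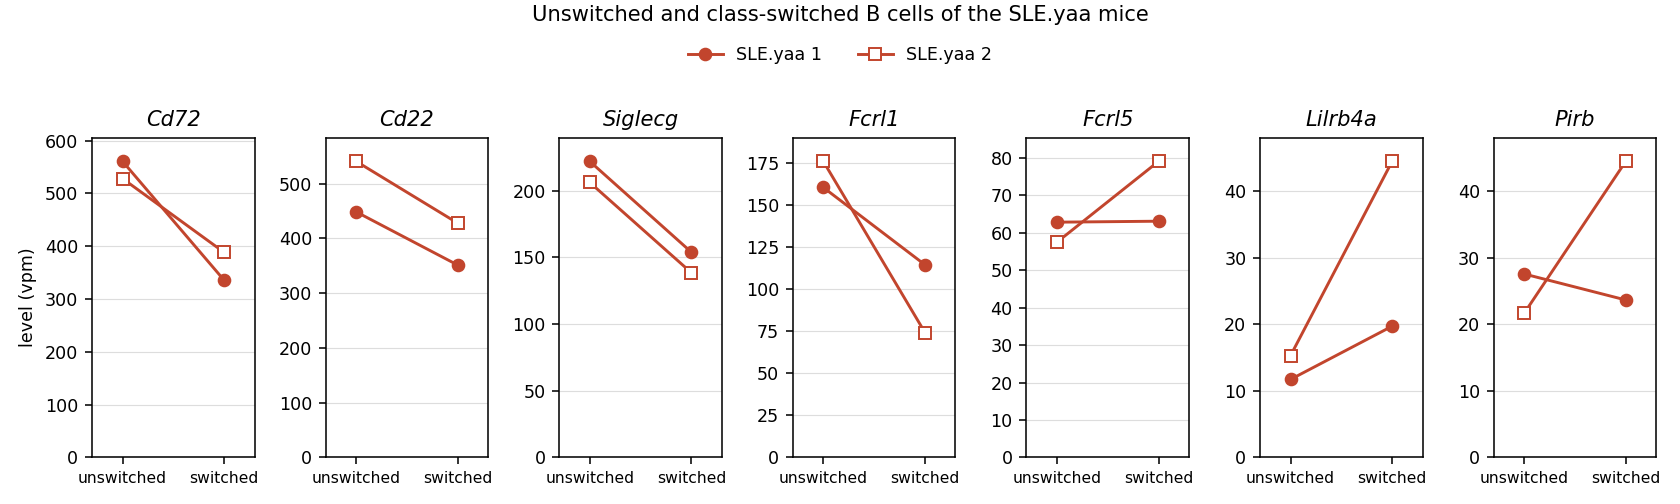
Level (vpm, axis from 0) of 7 receptors in unswitched (IgM or IgD) and class-switched (IgG, IgA or IgE) B cells, with 1 line per SLE.yaa mouse. Both lines go down for Cd72, Cd22, Siglecg and Fcrl1, and up for Fcrl5 and Lilrb4a, which did not pass the test.

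Plasma cells held little of these receptors in either class. With 235 and 230 switched against 96 and 49 unswitched plasma cells, the 2 receptors above the filter were Siglecg (15.83 and 3.631 against 25.83 and 22.25 vpm, 0.86, limma, adjusted p = 0.101) and Fcrl1 (11.88 and 10.89 against 17.47 and 16.88 vpm, 0.34, limma, adjusted p = 0.615). Neither passed by limma (0 of 2, against 4.23% of all genes tested), with 1 at an unadjusted p under 0.05.

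The phosphatases and adaptors that act with ITIMs, and the other genes around these receptors, were tested in lists. Of all genes tested, 12.1% passed in DC, 5.69% in Mac and 3.52% in B cells, in either direction. In neutrophils the share was 1.8% and in CD8 T cells 3.14%. Of the ITIM effectors, 4 of 9 tested were higher in the SLE.yaa cells annotated DC and 0 lower. Their median difference was 0.73, against 0.06 over all genes. Dok3, an adaptor that dampens immunoreceptor signals, was at 16.41, 14.37, 165.2 and 130.0 vpm (2.76, limma, adjusted p = 0.000207). Ptpn6, which encodes SHP-1, was at 292.0, 194.0, 575.1 and 589.4 vpm (1.42, limma, adjusted p = 0.00231), and Lyn, the kinase that phosphorylates ITIMs, at 331.4, 319.8, 665.9 and 576.8 vpm (1.07, limma, adjusted p = 0.00318). Ptpn6 was higher in cells annotated Mac as well, at 501.8, 417.5, 704.8 and 652.0 vpm (0.74, limma, adjusted p = 0.0148), where 2 of 9 effectors were higher. In B cells 0 of 8 effectors passed by limma, with 1 at an unadjusted p under 0.05, and in neutrophils 0 of 9, with 3. Their medians were −0.05 in B cells and 0.38 in neutrophils, against −0.01 and 0.03 over all genes.

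Most activating receptors and signalling genes tested passed as higher in the same DC cells. Of the genes of activating receptor signalling 8 of 14 were higher, against 12.1% of all genes in either direction, with a median of 0.74. Fcer1g, the signalling chain of Fc receptors and of several activating receptors, was at 1604, 1358, 5173 and 5215 vpm (1.98, limma, adjusted p = 0.0003), and Syk, the kinase it recruits, at 177.2, 161.7, 414.3 and 345.9 vpm (1.28, limma, adjusted p = 0.00183). Of the activating relatives of the inhibitory receptors 8 of 12 were higher (median 1.17), among them Pilrb2 (2.90) and Lilra5 (2.86) with limma adjusted p of 0.000184 and 0.000587. In cells annotated Mac 1 of 11 was higher and 4 lower, against 5.69% of all genes. The higher one was Cd300ld, at 275.8, 237.0, 515.5 and 519.9 vpm (1.17, limma, adjusted p = 0.00175). Pira2, an activating relative of Pirb, was at 55.99, 52.00, 25.19 and 24.08 vpm there (−0.74, limma, adjusted p = 0.0216). In B cells Fcer1g was higher (5.360, 3.190, 45.49 and 76.56 vpm, 2.31, limma, adjusted p = 0.000196), where 1 of the 15 list genes tested was higher and 1 lower. Macrophage markers in the same B cells summed to 6.927, 8.532, 33.53 and 30.99 vpm, beside the monocyte sums given above, and without cells that hold at least 2 myeloid markers the Fcer1g difference was 1.39 (limma, adjusted p = 0.000235).

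Other inhibitory receptors did not move as 1 group. In cells annotated DC 10 of 18 were higher and 0 lower, against 12.1% of all genes in either direction, with a median of 1.03. Among them were Clec4a3 (3.90, limma, adjusted p = 6.67e-05), Pilra (3.07, limma, adjusted p = 0.00345) and Lilr4b, the close copy of Lilrb4a (2.04, limma, adjusted p = 0.0039). In cells annotated Mac 3 of 16 were higher and 3 lower, against 5.69% of all genes in either direction. Pecam1, an adhesion receptor with ITIMs, was at 30.41, 16.82, 141.1 and 213.6 vpm there (2.63, limma, adjusted p = 0.000999). Fcgr2b, the inhibitory IgG receptor, was at 197.0, 292.1, 56.45 and 31.34 vpm (−2.09, limma, adjusted p = 0.00148). Fcgr2b went the other way in neutrophils, at 28.99, 20.57, 102.9 and 70.62 vpm (1.65, limma, adjusted p = 0.013), and the difference between the types was not tested. In B cells 1 of 6 was lower, Clec12a (−0.76, limma, adjusted p = 0.00119), against 3.52% of all genes in either direction.

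Genes of the ligands and of the enzymes that make them had their most calls in CD4 T cells, where 4 of 14 were higher and 3 lower, against 28.2% of all genes. In CD8 T cells 2 of 13 were higher and 1 lower, in DC 2 and 1 of 13, in Mac 0 and 1 of 15, and in neutrophils 1 and 0 of 12. Sema4d, which encodes the CD72 ligand CD100, was lower in the SLE.yaa cells annotated DC, at 167.3, 147.3, 82.16 and 85.89 vpm (−0.67, limma, adjusted p = 0.0473). Apoe, a reported ligand of LILRB4, was higher there, at 164.1, 179.6, 2358 and 1221 vpm (3.40, limma, adjusted p = 0.000173). Fn1, which encodes fibronectin, another reported LILRB4 ligand, was lower in cells annotated Mac, at 526.7, 692.8, 232.8 and 184.9 vpm (−1.31, limma, adjusted p = 0.00173). Cmah, whose enzyme makes the sialic acid that mouse CD22 prefers, was higher in neutrophils, at 25.94, 29.71, 65.93 and 67.63 vpm (1.22, limma, adjusted p = 0.0407). Of 13 such genes tested in B cells 0 passed by limma, with 6 at an unadjusted p under 0.05. Without SLE.yaa 1 or SLE.yaa 2 the differences of Ptpn6 (0.73 or 0.76) and Pira2 (−0.73 or −0.75) in Mac, Sema4d in DC (−0.62 or −0.73), and Cmah (1.34 or 1.11) and Fcgr2b (1.52 or 1.81) in neutrophils did not pass.

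The lists were also tested in DC cells without C1q alone. Among DC cells without C1q 0 of 9 ITIM effectors and 0 of 13 signalling genes passed by limma, with 3 and 1 at an unadjusted p under 0.05. Of the activating relatives 1 of 10 was higher there, against 0.377% of all genes tested in either direction. Of the other inhibitory receptors 0 of 18 passed by limma, with 4 at an unadjusted p under 0.05. The medians there were 0.32 for the ITIM effectors, −0.05 for the signalling genes, 0.31 for the activating relatives and −0.13 for the other inhibitory receptors. Cells annotated Mac also differed in make-up, with Ly6c2 found in 169 of 375, 63 of 169, 99 of 550 and 234 of 1485 cells. Over all genes 449 passed in Mac, against 29 among the cells with Ly6c2 and 85 among those without. The part of this make-up in the differences of the list genes in Mac was not tested.

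Over 36 means of 4 mice and 9 cell types, the genes whose level followed each receptor most closely were taken from 10132 genes by Pearson correlation on the log2 scale. The means of a mouse share a library and those of a type share its cells, so these values describe the table only. Fcrl1 went with Bank1 (0.968), Snn (0.957) and Rasgrp3 (0.956), Siglecg with Cyb561a3 (0.967), Spib (0.962) and Snn (0.961), and Cd22 with Bfsp2 (0.963), Dennd5b (0.961) and Ffar1 (0.956). Cd72 had weaker partners, Myo1e (0.895), Cd38 (0.880) and Sdc4 (0.851). Siglece went with Il1b (0.955), Agap1 (0.952) and Trpm2 (0.951), Lilrb4a with Ifitm2 (0.949), Lilr4b (0.936) and Cebpd (0.930), and Pirb with Csf2ra (0.960), Skap2 (0.959) and Spi1 (0.958). The genes most like Fcrl5 were the haemoglobin genes Hbb-bt (0.823), Hba-a1 (0.781) and Hbb-bs (0.769). Among the receptors themselves Cd22 and Fcrl1 were the most alike (0.943), followed by Siglecg and Fcrl1 (0.917), and of the myeloid receptors Siglece and Lilrb4a (0.877). Cd72 and Lilrb4a were opposed (−0.483).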

How the data were processed

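The expression table deposited by the authors gives for each gene and cell the natural log (ln) of a whole number plus 1, and how the authors adjusted these numbers for depth was not stated in the sources used here. Per cell they sum to within a 2.40-fold range. The UMI counts per cell, the percent of mitochondrial UMIs, the heavy-chain isotypes and the cell types are the authors' deposited annotation, and Cell Ranger 5.0.0, Seurat 4.0.0 and GRCm38 are named in the submitters' processing notes. Rows without a gene name (15, with 0.044% of the values) were left out.

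For each mouse and type the mean over cells was taken, brought to a sum of 1000000 and scaled by TMM factors (edgeR 4.0.16, R 4.3.3), and tested with limma 3.58.1 (trend, robust off) on log2 of the value plus 10. Genes needed 10 vpm in at least 2 mice and types needed 20 cells in each mouse, tests were two-sided, and p was adjusted by Benjamini-Hochberg over all genes tested, with a threshold of 0.05. The class-switch comparison had the mouse as a block. The mouse was the replicate, and p-values measure only the spread between these mice. The scripts were tested on simulated data. No doublet caller was run, and cells with markers of a second type were left out in alternatives. No correction for free RNA in droplets was made here.

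The members and lists were chosen with earlier results of these data known. The genes named are the 8 members, the 3 most alike to each, and list genes past the threshold in B cells, Mac, DC or PMN, up to 6 per list and comparison, with 1 item not reported here. The alternatives were other scalings, pseudocounts, filters, no variance trend, the mean of the ln values, a fixed UMI range, subsets of cells and each mouse left out. Leaving out DC, Mac and T cells by B cell or myeloid markers, Mac cells with C1q left out and the fit without a block were added after seeing the data. A planned search of protein sequences for ITIMs was not run.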

Additional observations from a re-analysis of the deposited data

Results flagged for a closer look

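In B cells, Mac, DC, neutrophils, CD4, CD8 and NK cells, 5 of the receptors had both SLE.yaa mice above both WT mice in 1 type and below them in another. These differences between cell types were not tested, and with 2 against 2 mice groups often separate (41.4% to 54.9% of all genes tested in B cells, Mac, DC and neutrophils). The share of all genes that separate in opposite directions in different types was not taken, so nothing is read from this count. Cd72 was higher in SLE.yaa mice in cells annotated DC (4.19 on the log2 scale) and lower in CD8 T cells (−0.70). Cd22 was higher in Mac (0.90, though 0.04 among cells with Ly6c2) and lower in DC (−0.49, which did not pass, and with overlap among cells with and without C1q). Siglece was higher in DC (2.51) and lower in neutrophils (−0.26, though 0.37 among cells with 2000 to 6000 UMIs). Lilrb4a was higher in CD4 T cells (2.41) and lower in Mac (−0.21, though 0.11 among cells with 2000 to 6000 UMIs and 0.40 among cells without Ly6c2). Pirb was higher in DC (0.80) and lower in B cells (−0.21, though 0.0025 without scaling between mice).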

How the results depend on the processing

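No paired analysis was possible because the labels give the WT and SLE.yaa mice no shared numbers, and no genotype comparison had a replicate block. With 2 mice a group, counts of genes past the threshold (limma) depended on the setting, and the cause was not tested. Without scaling between mice they were 1084 in B cells (1050 higher and 34 lower, against 279, of which 208 and 71), 1069 in type B (against 326), 220 in B-ISG (against 67), 73 in B-early (against 33), 1539 over all cells (1467 and 72, against 671, of which 513 and 158) and 589 in switched against unswitched plasma cells (against 340). The split was 2056 and 485 in CD4 (against 1336 and 1033), 339 and 28 in CD8 (against 206 and 54), 120 and 14 in neutrophils (against 81 and 36), and 696 and 321 between switched and unswitched B cells (against 422 and 697). Without scaling the median difference of all genes was 0.20 in B cells, 0.16 in CD4 and 0.15 over all cells. With the sum alone it was −0.12 in Mac, −0.14 in neutrophils, −0.10 in CD8 and −0.11 in NK cells, with splits of 167 and 258 in Mac (against 309 and 140), 594 and 493 in DC (against 740 and 333) and 54 and 94 in neutrophils, and 16 genes in NK cells (against 7). Without a filter on low values, which tests more genes, the counts were 116 in B cells, 119 in type B, 0 in B-early (888 at an unadjusted p under 0.05), 83 in Mac (against 449), 329 in DC (against 1073), 19 in CD8 (against 260), 0 in NK (713 at an unadjusted p under 0.05) and 37 in switched B cells (against 1119). Without the variance trend they were 3 in B-ISG, 11 in B-early, 255 in Mac, 14 in neutrophils (against 117), 0 in NK (557 at an unadjusted p under 0.05), 510 in switched B cells and 122 in switched plasma cells. From means of the ln values they were 768 in B cells, 867 in type B, 179 in B-ISG, 243 in neutrophils and 1072 over all cells. Among cells with 2000 to 6000 UMIs they were 34 in B-ISG, 136 in Mac, 620 in DC, 741 in CD8, 3 in NK and 35 in switched B cells. By class of cells they were 29 in Mac with Ly6c2, 85 in Mac without it, 32 in DC without C1q and 128 in CD8 without cells with myeloid markers. Without the mouse as a block they were 367 in switched B cells and 77 in switched plasma cells.

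With each mouse left out the counts were 136 to 729 in B cells, 127 to 1012 in type B, 0 to 90 in B-ISG, 0 to 39 in B-early, 99 to 1643 in Mac, 523 to 2076 in DC, 0 to 428 in neutrophils, 1400 to 2039 in CD4 (against 2369), 47 to 1755 in CD8, 0 to 72 in NK and 464 to 1775 over all cells. Where the limma count was 0, 360 to 1265 genes had an unadjusted p under 0.05. A lone mouse is then assumed to vary like the other group.

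Among DC cells without C1q the direction changed for Lilrb4a (−0.18), Lyn (−0.17), Fcer1g (−0.029), Syk (−0.19), Pilrb1 (−0.19), Apoe (−0.58) and Clec4a1 (−0.084), a subset with 32 calls. Taking only IgM cells as unswitched gave Fcrl5 a class-switch difference of −0.019. In the class-switch comparison the Cd22 call was also lost with the sum alone, without scaling, with a pseudocount of 5 and with IgM cells only, and Lilrb4a passed with the sum alone (adjusted p = 0.0423, limma) and without scaling (adjusted p = 0.0358, limma). Depth limits the WT cells annotated DC with C1q (4 and 9 cells), plasma cells, basophils and the switched B cells of WT mice (14 and 6), which were not tested.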
